A study of Mus musculus with 2 samples.

Results

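Proteasome genes were followed in spleen CD8+ regulatory T cells from mice that were wild type or lacked both Tgfbr2 and Eomes. Members were all genes whose symbol is Psm, a letter from a to g and a number, which gave 49 of the 22609 genes listed in the count files. The first group, labelled WT, was 1 library of cells sorted from spleens of unimmunised wild-type mice aged 3 months. The second group, labelled Tgfbr2-/-Eomes-/- and called DKO here, was 1 library of cells sorted in the same way from mice of that genotype and age. Tgfbr2 encodes a receptor subunit for TGF-beta, and Eomes is a T-box factor that acts in effector and memory CD8+ cells. The labels do not give the sort markers, the number of mice per library, the strain, or the promoter or Cre used for the deletions.

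The proteasome is the protease that degrades ubiquitin-tagged proteins in the cytosol and nucleus. Its barrel-shaped core, the 20S particle, is built from outer rings of alpha subunits (Psma genes), which gate the entry, and inner rings of beta subunits (Psmb genes), of which 3 kinds carry the active sites. The 19S cap recognises ubiquitin chains, unfolds the substrate with a ring of ATPases (Psmc genes) and removes the ubiquitin through its non-ATPase subunits (Psmd genes). In lymphocytes the standard catalytic subunits encoded by Psmb6, Psmb7 and Psmb5 are largely replaced by Psmb9, Psmb10 and Psmb8, which form the immunoproteasome. Interferon-gamma induces these 3 genes, and the immunoproteasome cuts peptides that suit MHC class I molecules.

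RefSeq promoter windows on GRCm38.p6, from 250 bases before to 50 bases after the gene start, were found for 41 of the 49 members; no window was used for Psma8, Psmb1, Psmb2, Psmb7, Psmc3, Psmd3, Psmd7 and Psmg2. Of these windows, 4 stretches are shown because they belong to catalytic subunits whose ratios differed (Psmb9 rose, Psmb6 fell, Psmb8 and Psmb5 did neither). Each stops before the RefSeq gene start. The first is the whole gap between the RefSeq starts of Psmb9 and the peptide transporter gene Tap1, genes transcribed away from each other. Lengths below use another annotation, GENCODE M21, in which the longest Psmb9 transcript shares stretches with Tap1 transcripts. Capitals mark CCAAT (read on the other strand) in the gap, TTCNNNGAA for Psmb8 and TGACNNNGC for Psmb5 and Psmb6.
Psmb9 to Tap1 gap, GRCm38.p6 chr17:34187331-34187555, minus strand: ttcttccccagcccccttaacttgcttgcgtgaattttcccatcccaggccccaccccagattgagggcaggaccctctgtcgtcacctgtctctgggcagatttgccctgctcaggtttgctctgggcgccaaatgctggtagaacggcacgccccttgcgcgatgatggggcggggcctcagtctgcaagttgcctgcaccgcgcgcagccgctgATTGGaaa
Psmb8 upstream, GRCm38.p6 chr17:34198075-34198194, plus strand: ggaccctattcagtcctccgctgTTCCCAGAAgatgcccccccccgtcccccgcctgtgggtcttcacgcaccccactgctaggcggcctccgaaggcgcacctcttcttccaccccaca
Psmb5 upstream, GRCm38.p6 chr14:54617996-54618115, minus strand: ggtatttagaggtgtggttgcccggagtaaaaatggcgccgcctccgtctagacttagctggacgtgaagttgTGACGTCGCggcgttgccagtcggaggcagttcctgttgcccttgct
Psmb6 upstream, GRCm38.p6 chr11:70525237-70525356, plus strand: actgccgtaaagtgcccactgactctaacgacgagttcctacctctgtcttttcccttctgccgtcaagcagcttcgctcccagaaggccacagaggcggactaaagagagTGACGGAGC

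Motifs were searched on both strands of the 300-base windows. TTCNNNGAA, the letters of the gamma-activated sequence, was found in 8.30% of all 32851 windows and in 3 of the 41 members, Psmb8, Psmd2 and Psmg1; in Psmb8 it starts 97 bases before the gene start and the pattern matches on both strands. The interferon-stimulated response element core (GAAA, any 2 bases, GAAA), bound by interferon regulatory factors, was found in 3.44% of all windows and in Psmb3, Psmd4, Psmd9, Psme1 and Psmg4. TGACNNNGC, the antioxidant response element that NFE2L1 and NFE2L2 bind, was found in 12.4% of all windows and in 6 members, and it starts 47 bases before Psmb5 and 9 bases before Psmb6. CCAAT was found in 37.4% of all windows and in 15 members, among them Psmb9. Psmb10 held none of the 4 motifs. None of these motifs overlap each other within the printed stretches, and the matches describe letters only.

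WT and DKO below stand for these libraries. Their gene counts came to 22307065 (WT) and 19661212 (DKO), of which the 49 members held 0.639% and 0.652%. Levels are given as CPM, read counts scaled to library size with TMM factors. Since each genotype has a single library, differences have no replicate check and carry no p-value. Intervals are exact 95% intervals of counting error alone, and they compare the libraries, not the genotypes. Eomes had 10292 (WT) and 3589 (DKO) counts, a 2.61-fold lower level in DKO, and Tgfbr2 had 7825 and 4882 counts, 1.46-fold lower. Whole-gene counts do not show whether the deleted part is among them. Cd8a was at 998 (WT) and 978 (DKO) CPM. The 7 of 8 listed CD8 T cell markers found in the files were all at 1 CPM or more. These markers do not show the regulatory part of the label. Of the listed CD8 regulatory T cell markers, Cxcr5 was at 155 and 33.4 CPM, 4.66-fold lower in DKO. Klra6 was at 0 in both libraries. Il2rb had 2675 and 2213 CPM, Cd44 286 and 345, Klra7 227 and 244, and Klra1 67.4 and 77.8. Ikzf2 had 61.5 and 47.2 CPM and Klra3 43.6 and 60.0.

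Most proteasome genes had nearly the same level in the 2 libraries. Of the 49 members, 2 had no counts and 47 had at least 1 CPM in either library, and the median log2 ratio (DKO over WT) of those 47 was 0.00146, against 0.00129 for all 11735 genes at that minimum. Only Psma3 was at least 2-fold higher with an interval that left out 1, where 11.7% of all genes were, and 0 members were at least 2-fold lower, where 3.67% were. Because these ratios were small, members were also counted at 1.2-fold, with the interval leaving out 1: 5 were higher (Psma3, Psma5, Psmb7, Psmb9 and Psmc3ip), where 27.9% of all genes were, and 4 were lower (Psmb6, Psmd3, Psmd5 and Psmd7), where 23.4% were. A gene is said to have risen or fallen only if it met this smaller limit. At 1.5-fold, 2 members were higher (Psma3 and Psmc3ip) and 0 lower, where 17.7% and 8.45% of all genes were. Among members with at least 20 CPM in either library, 38 of 45 (84.4%) lay within 1.2-fold either way, and among all 7555 genes at that minimum 56.6% did. Of those 45 members 3 rose and 4 fell, where 19.1% and 24.3% of genes at that minimum did. Fewer cells of a type and less RNA per cell cannot be told apart in such bulk libraries.

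**Figure D1:**
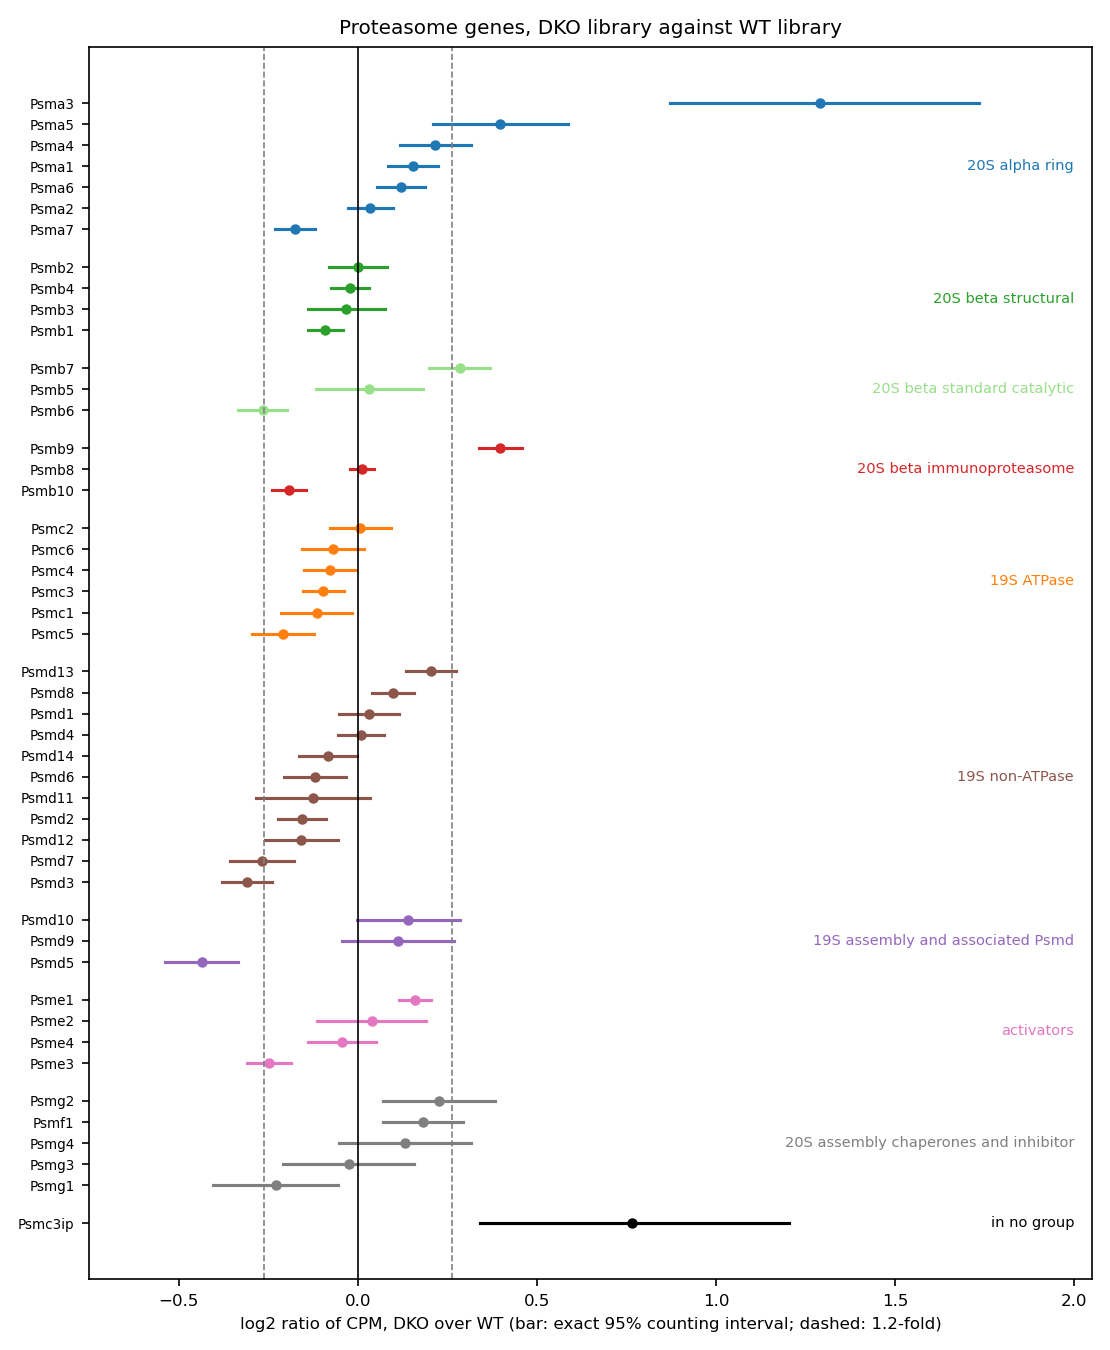
Log2 ratio of CPM, DKO over WT, for the 47 members with at least 1 CPM in either library, grouped by role; bars are exact 95% counting intervals and dashed lines mark 1.2-fold. Psma3 and Psmc3ip, the members with the fewest counts among those plotted, lie farthest to the right, and Psmd5 at -0.44 lies farthest to the left.

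Of the 3 immunoproteasome subunits, 1 rose (Psmb9) and 0 fell, where 27.9% and 23.4% of all genes did. Psmb9, which takes the beta 1 position, had 195 CPM in WT and 257 CPM in DKO and rose 1.32-fold (1.27 to 1.37). Psmb8, which takes the beta 5 position with chymotrypsin-like activity, had 700 and 706 CPM and a ratio of 1.01 (0.986 to 1.03). Psmb10, which takes the beta 2 position, had 357 and 312 CPM and a ratio of 0.875 (0.847 to 0.905), which did not reach the 1.2-fold limit. The intervals of these 3 ratios did not overlap, but they cover counting error alone and are narrow for genes with this many counts. Their median log2 ratio was 0.01; the subunits shared neither the size nor the direction of their difference.

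The standard catalytic subunits spread as well, and at the beta 1 and beta 2 positions in the direction opposite to their immunoproteasome partners. Psmb6, the standard beta 1 subunit, had 176 and 147 CPM and fell, with a ratio of 0.832 (0.792 to 0.873). Psmb7, the standard beta 2 subunit, had 97.8 and 119 CPM and rose 1.22-fold (1.15 to 1.29); 312 of the 50-base stretches of its transcript are also in transcripts of Nek6. Psmb5, the standard beta 5 subunit and the main target of bortezomib, had 34.8 and 35.6 CPM and a ratio of 1.02 (0.922 to 1.13). The call of Psmb6 was lost when libraries were scaled by total counts, where its ratio stayed below 1.

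Ratios of partners within a library do not depend on how libraries are scaled, and they set the positions apart. At the beta 1 position the count of Psmb9 over that of Psmb6 was 1.11 in WT and 1.75 in DKO, a change of 1.59-fold (1.49 to 1.69) towards the immunoproteasome subunit. At the beta 2 position Psmb10 over Psmb7 went from 3.65 to 2.62, a change of 1.39-fold (1.30 to 1.49) towards the standard subunit. At the beta 5 position Psmb8 over Psmb5 was 20.1 and 19.9, with a DKO-to-WT ratio of 0.987 (0.887 to 1.10), so a shift of more than about 1.13-fold towards Psmb5 lay outside the counting interval. Summed over the 3 positions the immunoproteasome subunits held 80.2% of the catalytic counts in WT and 80.9% in DKO, and the ratio of the sums changed 1.04-fold (1.00 to 1.09). The opposite shifts at beta 1 and beta 2 are hidden in that sum.

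**Figure D2:**
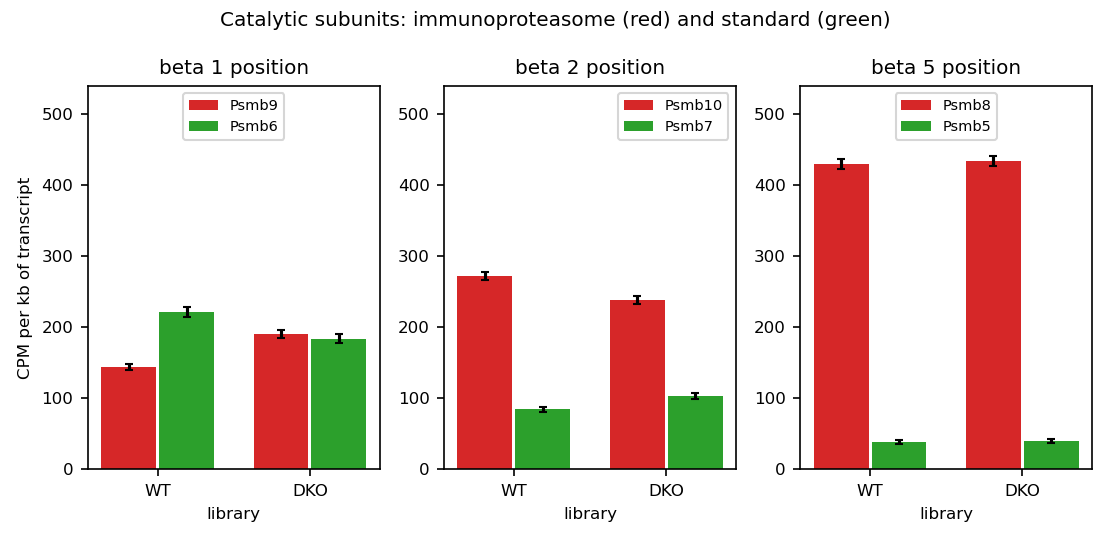
CPM per kb of transcript for the immunoproteasome subunit (red) and the standard subunit (green) at each catalytic position in the WT and DKO libraries; bars are single libraries and error bars are exact 95% Poisson intervals of the count. Psmb9 lies below Psmb6 in the WT library (144 and 221) and next to it in DKO (190 and 184), while Psmb8 stands at 430 and 434. These levels use the longest transcript, which has 1352 bases for Psmb9, where the median coding transcript has 529. By counts Psmb9 was above Psmb6 in both libraries (4281 and 3871 in WT).

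Tap1 rose by nearly the same fold as Psmb9. It is the gene on the other side of the printed 225-base gap, which encodes a subunit of the transporter that carries peptides into the endoplasmic reticulum. It had 363 and 491 CPM and rose 1.35-fold (1.31 to 1.39). Psmb8 and Tap2, the other subunits of the same protease and the same transporter, did not share that difference: Tap2 had 379 and 371 CPM and a ratio of 0.980 (0.949 to 1.01). In the annotation used here 163 of 1303 stretches of 50 bases in the longest Psmb9 transcript are also found in Tap1 transcripts, and the strand setting of the counting is not given, so some reads there cannot be assigned to either gene with certainty.

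Of 12 genes of class I peptide loading, 2 rose (Tap1 and Nlrc5) and 2 fell (Calr and Canx), where 27.9% and 23.4% of all genes did, and under scaling by total counts 3 rose and 1 fell. They had a median log2 ratio of -0.03, which was 0.01 under scaling by total counts. Nlrc5, the transactivator of class I genes, had 200 and 252 CPM and rose 1.26-fold (1.21 to 1.31). Calr, the chaperone calreticulin, had 540 and 430 CPM and fell 1.26-fold (1.22 to 1.29). B2m, the light chain of class I molecules, had 4359 and 4742 CPM and a ratio of 1.09 (1.08 to 1.10).

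Genes of the interferon-gamma axis were mostly higher in DKO. Of 21 listed genes, 13 rose and 2 fell (background as above, 27.9% and 23.4%), and their median log2 ratio was 0.49. Ifng itself had 4.60 and 29.1 CPM and rose 6.31-fold (5.10 to 7.88), Ifngr2, a receptor chain, had 10.2 and 28.0 CPM and rose 2.75-fold, and the chemokine gene Cxcl10 had 37 and 168 counts and rose 4.98-fold (3.47 to 7.32). Irf1, which acts on the immunoproteasome promoters, had 436 and 490 CPM and a ratio of 1.12 (1.09 to 1.16).

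Summed markers of most other listed cell types were higher in DKO, and those of B cells were lower; of all genes, 11.7% were at least 2-fold higher. Myeloid markers summed to 1674 CPM in WT and 3489 CPM in DKO, with 8 of 12 at least 2-fold higher, and dendritic cell markers to 1507 and 4188 CPM, with 8 of 10. Neutrophil markers summed to 526 and 2522 CPM, with 6 of 8, NK cell markers to 1029 and 1967 CPM, with 3 of 7, and CD4 and FOXP3 T cell markers to 65.7 and 207 CPM, with 7 of 8. Most of the difference in the NK cell sum was Gzma, at 160 and 785 CPM. Klre1 of that list fell from 150 to 93.1 CPM, and its other genes had higher CPM in DKO. B cell markers summed to 134 and 94.5 CPM, plasma cell markers to 295 and 524 CPM, and erythroid and platelet markers to 14.5 and 30.2 CPM. In the B cell list Cd22 fell from 82.8 to 24.1 CPM, and the other genes had higher CPM in DKO. Most of the difference in the plasma cell sum was Igj, at 189 and 389 CPM. Xbp1 and Irf4 of that list also rose. Tnfrsf17, with 29 and 10 counts, was 2.64-fold lower, and Sdc1 had a ratio of 0.962 with an interval that included 1. Among these lists Khdc1a was at 0 in the WT library, and the erythroid genes Hbb-b1 and Hba-a1 were at 0 in both libraries. CD8 T cell markers summed to 5638 and 5215 CPM. The part of other cells in the values of Psmb9, Tap1 and the interferon-gamma genes was not tested.

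In the alpha ring, 6 of the 7 measured genes had a ratio above 1, where 5886 of all 11735 genes had. Of the 7, 2 rose (Psma3 and Psma5), where 27.9% of all genes did. Psma5 had 19.3 and 25.5 CPM and rose 1.32-fold (1.16 to 1.502). Psma3 had 67 and 150 counts, or 3.05 and 7.50 CPM, and rose 2.46-fold (1.83 to 3.33). Both have pseudogenes that share sequence with them, and both had low counts for obligate subunits. Psma4 (72.4 and 84.2 CPM), Psma1 (153 and 170 CPM) and Psma6 (164 and 178 CPM) had ratios of 1.16, 1.11 and 1.09 with intervals above 1. Psma7, the most abundant of the ring by CPM, had 257 and 227 CPM and a ratio of 0.886 (0.852 to 0.921), and Psma2 had 187 and 192 CPM. The median log2 ratio of the ring was 0.15.

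The structural beta subunits, which complete the inner rings without an active site, varied least. Psmb2 had 117 CPM in both libraries, Psmb4 had 275 and 271 CPM, and Psmb3 had 69.0 and 67.5 CPM. Psmb1 had 329 and 309 CPM and a ratio of 0.939 (0.907 to 0.971). None of the 4 rose or fell, their log2 ratios had an SD of 0.04 across genes, and the ratios of Psmb3 and Psmb4 turned from just below to just above 1 under scaling by total counts.

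Most 19S genes had ratios slightly below 1. Of the 17 ATPase and non-ATPase genes, 12 had a log2 ratio below 0, where 5849 of all 11735 genes had. Of the 17, 2 fell and 0 rose, where 23.4% and 27.9% of all genes did. Falls were thus no more frequent than among all genes. The median was -0.10, which stayed negative at -0.05 under scaling by total counts, where 0 fell. Counts of these 17 genes over those of the alpha and standard beta genes changed from 1.16 to 1.11, a ratio of 0.955 (0.937 to 0.973) that does not depend on scaling. In DKO the summed counts of these cap genes were thus 1.05-fold lower relative to those core genes (1.03 to 1.07). The core genes here leave out Psmb8, Psmb9 and Psmb10, and amounts of the particles were not measured.

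Within the ATPase ring, which pulls substrates into the core, all 6 genes lay within 1.2-fold. Psmc5 had 115 and 99.3 CPM and the lowest ratio of the ring, 0.865 (0.815 to 0.918). Psmc3 had 243 and 227 CPM, Psmc4 150 and 142 CPM and Psmc1 81.6 and 75.4 CPM, with intervals just below 1. Psmc6 (106 and 101 CPM) and Psmc2 (107 CPM in both) had intervals that included 1.

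Of the 11 non-ATPase subunits, 2 fell and 0 rose, where 23.4% and 27.9% of all genes did. Under scaling by total counts 0 fell. Both that fell belong to the lid, as do most of the 11. Psmd3, a lid scaffold subunit, had 184 and 149 CPM and fell 1.24-fold (1.18 to 1.30). Psmd7, the partner of the deubiquitinase in the lid, had 109 and 90.4 CPM and fell, with a ratio of 0.831 (0.781 to 0.883). Psmd14, that deubiquitinase, had 123 and 116 CPM and a ratio of 0.943 (0.892 to 0.998). Psmd2 (179 and 161 CPM), a large base scaffold, Psmd12 (79.5 and 71.2 CPM) and Psmd6 (107 and 98.1 CPM), both lid subunits, had ratios of 0.898, 0.896 and 0.921 with intervals below 1. Psmd11, a lid subunit at 32.8 and 30.1 CPM, had an interval that included 1. The ubiquitin receptor gene Psmd4 (187 and 188 CPM) and the other large base scaffold, Psmd1 (109 and 111 CPM), had ratios of 1.01 and 1.02. Above 1 lay Psmd8, at 215 and 230 CPM, and Psmd13, at 150 and 172 CPM with a ratio of 1.15 (1.10 to 1.21), both lid subunits.

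Psmd5, a chaperone that assembles the 19S base, gave the lowest ratio of all members. It had 89.99 and 66.5 CPM and fell 1.35-fold (1.26 to 1.45), and it was also the member that fell under scaling by total counts. Its fellow chaperone genes Psmd9 (31.1 and 33.7 CPM) and Psmd10 (36.4 and 40.2 CPM), the latter encoding gankyrin, had ratios of 1.08 and 1.10 with intervals that included 1. The gene listed as AI314180, which encodes the proteasome adaptor ECM29, had 84.9 and 62.5 CPM and fell 1.36-fold (1.26 to 1.46).

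Among the proteasome activators Psme1 had an interval above 1 and Psme3 an interval below 1, while those of Psme2 and Psme4 included 1. Psme1 and Psme2 encode the subunits of PA28 alpha-beta, an interferon-induced cap that opens the core without ubiquitin. Psme1 had 352 and 393 CPM and a ratio of 1.12 (1.08 to 1.15), and Psme2 had 33.6 and 34.6 CPM and a ratio of 1.03 (0.925 to 1.14). Psme3, the nuclear PA28 gamma, had 220 and 185 CPM and a ratio of 0.842 (0.806 to 0.879), and Psme4, which encodes PA200, had 87.8 and 85.2 CPM. No activator met the 1.2-fold limit on its own. The count of Psme1 and Psme2 over that of Psme3 and Psme4 went from 1.25 to 1.58, a change of 1.26-fold (1.205 to 1.32) towards the interferon-induced activator. Most of these counts were those of Psme1 and Psme3.

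None of the core assembly chaperones or the inhibitor gene rose or fell. Psmg2 (30.0 and 35.1 CPM) had a ratio of 1.17 (1.05 to 1.30), and its partner in the same alpha ring chaperone, Psmg1 (28.2 and 24.1 CPM), had a ratio of 0.853 (0.755 to 0.962). These intervals lay on opposite sides of 1. Psmg3 (23.5 and 23.1 CPM) and Psmg4 (22.2 and 24.3 CPM), the other pair of chaperones, had intervals that included 1. Psmf1, which encodes the regulator PI31, had 58.7 and 66.5 CPM and a ratio of 1.13 (1.05 to 1.23).

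Tissue-restricted members were not detected. Psma8, a testis alpha subunit, and Psmb11, the thymoproteasome subunit of the thymic cortex, had 0 counts in both libraries, which allows up to 0.137 CPM in WT and 0.150 CPM in DKO (3 counts). Psmc3ip matches the symbol rule but encodes a meiotic recombination factor, not a proteasome subunit. It had 76 and 118 counts, or 3.46 and 5.90 CPM, and rose 1.70-fold (1.27 to 2.30). Its transcript shares 336 stretches of 50 bases with Mlx. Beside it, 26 of 30 listed proliferation genes rose and 0 fell, where 27.9% and 23.4% of all genes did, with a median log2 ratio of 1.21; the largest were Tk1 (6.06-fold), Aurkb (5.29-fold) and Ube2c (4.91-fold). The part of proliferation in the value of Psmc3ip was not tested.

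Levels of different genes were compared as CPM per kb of the longest coding transcript in GENCODE M21. Psmb8 stood highest in both libraries (430 and 434), followed by Psme1 (316 and 353) and Psmb10 (272 and 238). Psmb9 was the 9th in WT and the 6th in DKO, and these ranks are of a level, not of a difference. Its longest transcript has 1352 bases and its median coding transcript 529, so its level per kb depends on the transcript used. The median member stood at 68.8 and 69.3, and the order of the 47 genes in the libraries had a Spearman correlation of 0.989, given as a description since both orders share gene lengths and sequence. Subunits that occur in equal number in the core differed widely in level: within the alpha ring the range was 1.07 to 222 in WT and 2.64 to 197 in DKO.

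**Figure D3:**
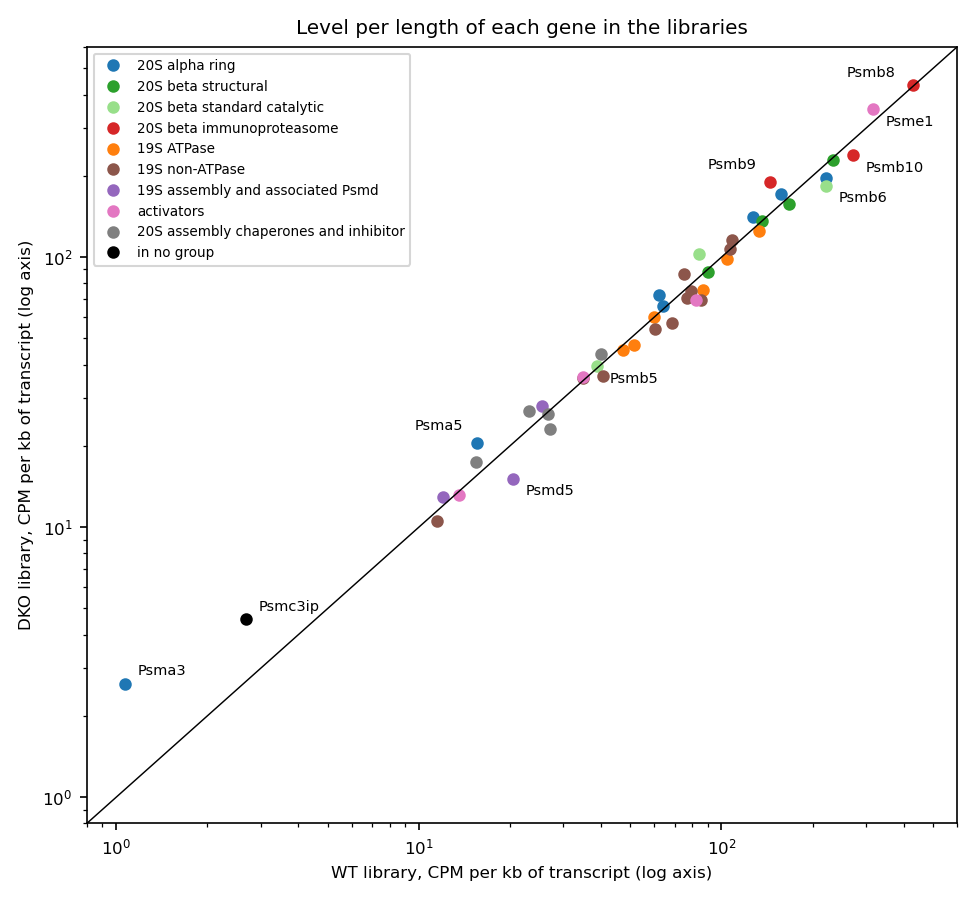
CPM per kb of transcript in DKO against the WT library for 47 members, on log axes; the line marks equal levels and each point is a gene coloured by role. The points keep close to the line from Psmd11 at 11.5 and 10.6 up to Psmb8 at 430 and 434, with Psma3 and Psmc3ip above it at the low end.

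Some obligate subunits with low levels, and Psmb3 at a level above the median, share sequence with other genes. The count files keep non-unique alignments in a row of their own, outside the gene counts. Across the 47 genes the Spearman correlation of the percent of unique sequence was 0.23 with the WT level and -0.34 with the log2 ratio, given as a description. Of the 47 members, 22 had every 50-base stretch (the read length) absent from all other annotated genes, pseudogenes included, and 4 had under 50% of stretches unique: Psme2 (40.7%), Psmb5 (42.9%), Psmb3 (44.2%) and Psma5 (44.6%). Psme2 shared 541 of its 913 stretches with Psme2b, a near copy. Psma3 had 78.0% of unique stretches in its longest transcript but 21.5% in its 859-base transcript. Levels of these genes are therefore uncertain.

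**Figure D4:**
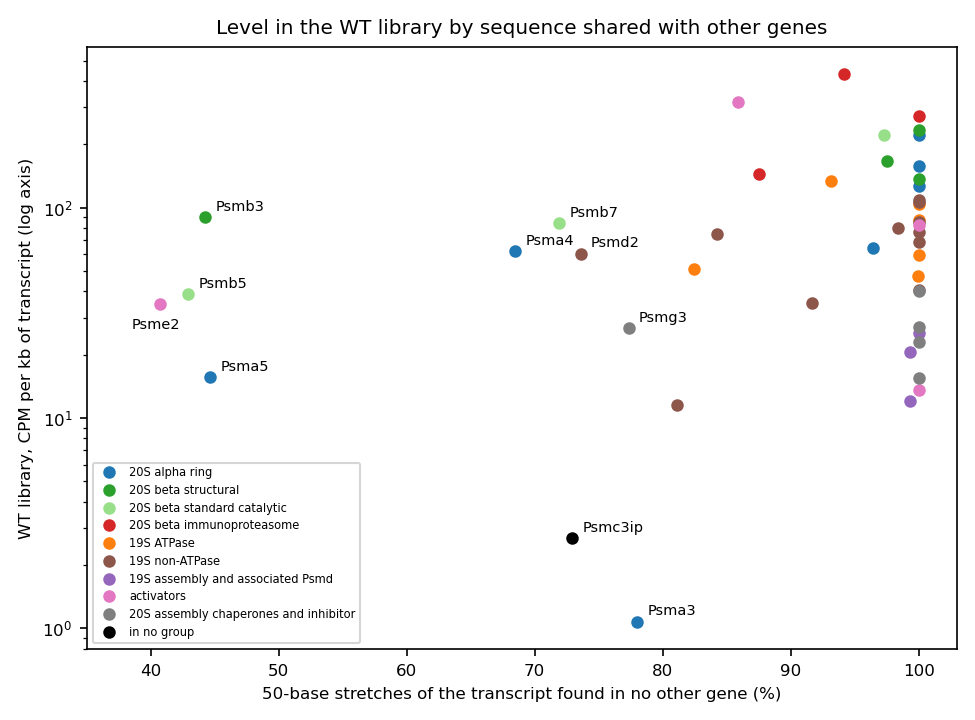
CPM per kb in the WT library (log axis) against the percent of 50-base stretches of the transcript found in no other gene, for 47 members coloured by role; genes under 80% are named. Psma3 lies lowest at 1.07, and Psme2, Psmb5 and Psma5, with 40.7% to 44.6%, lie between 15.6 and 38.7, while Psmb3, with 44.2%, lies at 90.04, above the median member.

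Sharing of sequence also bears on the size of the immunoproteasome share. Per kb of transcript, the 3 immunoproteasome subunits summed to 2.46 times the 3 standard subunits in WT and 2.64 times in DKO. Per kb of unique stretches the sums were 2.01 and 2.12 times. At the beta 5 position Psmb8 over Psmb5 was 11.1 in the WT library per kb of transcript and 4.94 per kb of unique stretches.

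Of 13 other proteasome genes outside the Psm symbols, 3 rose and 2 fell (1 under scaling by total counts), where 27.9% and 23.4% of all genes did, and their median log2 ratio was 0.14. Zfand5, a proteasome-activating protein, had 41.1 and 58.5 CPM and rose 1.42-fold (1.30 to 1.55). Nfe2l1, the transcription factor that raises proteasome genes when the protease is inhibited, had 155 and 176 CPM and a ratio of 1.13 (1.08 to 1.19). Ddi2 and Ngly1, which process that factor, rose 1.25-fold (1.09 to 1.43) and 1.21-fold (1.13 to 1.29). Akirin2, which carries proteasomes into the nucleus, had 65.8 and 53.4 CPM and fell 1.23-fold (1.14 to 1.34). Pomp, the core maturation factor, had 140 and 158 CPM and a ratio of 1.13 (1.07 to 1.19), and Adrm1, a ubiquitin receptor, had 11.9 and 10.9 CPM.

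Of 16 ubiquitin supply and delivery genes, 5 fell and 0 rose, where 23.4% and 27.9% of all genes did. Their log2 ratios were below 0 for 13 genes, where those of 5849 of all 11735 genes were. The median of the 16 was -0.14 (-0.09 under scaling by total counts, with 4 that fell). Ubqln4, a shuttle that brings ubiquitinated proteins to the proteasome, had 101 and 76.1 CPM and fell 1.33-fold (1.24 to 1.42). Ubqln1, of the same family, had 185 and 145 CPM and fell 1.28-fold (1.22 to 1.34), and the ubiquitin ligase gene Ube3c had 78.3 and 59.8 CPM and fell 1.31-fold (1.21 to 1.41).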

How the data were processed

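RNA of sorted cells was made into libraries with an Illumina total RNA kit and read as 50-base single-end reads, per the labels' protocols. The authors deposited raw counts of reads per gene. TopHat2 2.0.8b, HTSeq, bcl2fastq and mm9 appear in the submitters' processing notes with no roles; strand setting and annotation: not given in the sources used here. The 5 rows naming no gene were left out; non-unique alignments were 66.4% (WT) and 64.8% (DKO) of all rows' sum.

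Counts were scaled by TMM (edgeR 4.0.16, R 4.3.3; factors 0.983 and 1.02), and log2 ratios used a prior count of 0.5. Intervals are exact Clopper-Pearson intervals of the DKO share of a gene's counts, turned into ratios, or exact conditional odds ratios for gene pairs (scipy 1.17.1). They cover counting error only, as reads lacking molecular identifiers may be copies of 1 molecule. Comparisons took genes reaching 1 CPM in WT or DKO. Scripts were tested on simulated data. Named were all members, the 3 largest absolute log2 ratios at 5 CPM or more per other list, and 12 genes whatever their value, of which 1 is not reported here; the rest were chosen after their values were seen. Members and lists were chosen with earlier results of these data known. Lengths and shared stretches came from GENCODE M21 (GRCm38, not mm9), matched for 49 of 49 members. Alternatives were other scalings (total counts, DESeq2 1.42.0), minimums, limits, prior count and lengths.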

Additional observations from a re-analysis of the deposited data

How the results depend on the processing

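Scaling by total gene counts left 1 member at least 1.2-fold lower (Psmd5) in place of 4, since Psmb6, Psmd3 and Psmd7 no longer met the limit, and raised the higher members from 5 to 7 by adding Psma4 and Psmg2; it moved the median log2 ratio of the immunoproteasome subunits from 0.01 to 0.0608 (the value of Psmb8) and that of all genes from 0.00129 to 0.05. Under it the log2 ratios of Psmb3, Psmb4, Psme4 and Psmg3 turned from negative to positive, and none of the 4 was called. Over all genes, 1370 were at least 2-fold higher and 431 lower; without a minimum 701 were lower, with a minimum of 5 CPM 740 were higher and 149 lower, and at 1.5-fold 2074 were higher and 992 lower, with 2 members higher (Psma3 and Psmc3ip). DESeq2 size factors, a prior count of 5 and both other minimums moved none of the 47 members' log2 ratios beyond its interval, and scaling by total counts moved 3 (Psmb8, Psmb10 and Psme1). The ratio of immunoproteasome to standard subunits per length was 2.46 (WT) and 2.64 (DKO) with the longest transcript, 4.20 and 4.70 with the median transcript length, and 2.01 and 2.12 with unique stretches. Leaving out a library was not run, as each group has 1. No paired analysis was possible because each group has 1 library with no shared number in the labels.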
